A study of Mus musculus with 122 samples.

Results

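The 32 genes described here encode enzymes, transporters and regulators of fatty acid oxidation in mitochondria and peroxisomes. They were taken by name from a list of genes of these pathways, and all 32 were found in each of the 3 gene count tables, which held 22050 genes. Of these, 20 act in mitochondria, 9 in peroxisomes, and 3 (Ech1, Eci2 and Crat) in both. Their expression was read in 99 RNA libraries of sorted mouse alveolar macrophages and related lung cells that lacked or carried an altered Cebpb gene, or lacked Csf2rb. Each mutant group was set against its own control. Cebpb encodes the transcription factor C/EBPβ, and Csf2rb encodes a receptor subunit for the growth factor GM-CSF, on which alveolar macrophages depend.

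Fatty acids enter mitochondria as carnitine esters through Cpt1a, the carrier Slc25a20 and Cpt2, and are then shortened in repeated rounds of dehydrogenation, hydration, dehydrogenation and thiolysis. The electrons of the first step pass through the flavoproteins Etfa and Etfb to Etfdh and on to the respiratory chain. Peroxisomes shorten very long and branched chains with enzymes of their own, after import by the transporters Abcd2 and Abcd3, and hand the shortened products on as carnitine esters made by Crot and Crat. Alveolar macrophages clear surfactant lipid from the air spaces, and the nuclear receptor PPARγ, encoded by Pparg, controls many of their lipid genes.

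Adult alveolar macrophages were sorted from lung lavage. Mice of the line C/EBPb tm1Pfj on a mixed background gave Cebpb -/- macrophages sorted as CD11b low (n = 4) or CD11b high (n = 4), with 4 wild-type (Cebpb +/+) libraries. The same line gave -/- (n = 2), +/- (n = 3) and +/+ (n = 2) females of facility 1. It also gave -/- (n = 2) and +/+ (n = 3) females of facility 2, and -/- (n = 2) and +/+ (n = 2) males, for which the labels give no facility. A further set, labelled as RNA matched to chromatin samples, held 3 Cebpb -/- and 3 +/+ libraries. Conditional deletions on C57BL/6 used LyzM Cre/Cre with Cebpb flox/flox (n = 2, against Cebpb flox/flox without Cre, n = 2). Others used CD11c +/Cre with Cebpb flox/flox (n = 4, against CD11c +/Cre without a floxed allele, n = 3). LyzM-Cre acts in myeloid cells and CD11c-Cre in cells with CD11c, and deletion need not reach every cell. Mice with the label Lip/Lip (strain C/EBPtm1.2Acle, mixed background) gave 4 CD11b low and 4 CD11b high libraries against 3 Lip +/+ libraries. The chromatin-matched set held 4 further Lip/Lip libraries against 4 controls. LIP is the name of the short C/EBPβ isoform that lacks the activation domains.

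From whole lung at embryonic day 18 (E18) came premature alveolar macrophages without Cebpb (n = 4, against 3), the same cells of Csf2rb -/- mice (Csf2rbtm1Cgb/J, n = 3, against 4), and Ly6Chi fetal monocytes without Cebpb (n = 4, against 3). Irradiated CD45.1/2 recipients of 8 to 12 weeks received a mix of 33% wild-type CD45.1/1 and 66% CD11c-Cre Cebpb flox/flox CD45.2/2 marrow. Donor-derived knockout and wild-type macrophages were taken from their lungs 5 weeks (n = 4 against 3) and 10 weeks (n = 3 against 4) after transfer. These share a host, and the wild-type donor carries no Cre. The labels do not tie libraries to animals, so p-values measure the spread between libraries.

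Library totals ran from 642269 to 17834909 counts, and 9387 to 13579 genes had counts. Cebpb, the deleted gene, fell in all 12 knockout comparisons, with log2 fold changes of -5.34 (5-week chimeras) to -2.95 (LyzMCre), and Csf2rb fell by 1.62 in Csf2rb -/- cells. A list of 10 alveolar macrophage markers, all with counts in the wild-type cells, summed to 2300.3 to 3411 CPM in CD11b low knockout, 689 to 1713 CPM in CD11b high knockout and 9020.0 to 11350.0 CPM in wild-type libraries. For 9 markers of monocytes and interstitial macrophages the sums were 7383 to 13443 CPM, 7901 to 11380.3 CPM and 464 to 731 CPM in the same order of groups. In E18 premature macrophages the first list summed to 165 to 227 CPM without Cebpb and to 1851 to 1928 CPM in wild type. The second list summed there to 8062 to 12005 CPM without Cebpb and 1839 to 2728 CPM in wild type, and 7 dendritic cell markers (Xcr1 at 0 in all these libraries, Clec9a at 0 in wild type) to 596 to 1032 CPM without Cebpb and 29.6 to 38.4 CPM in wild type. In 5-week chimeras the alveolar macrophage markers summed to 1365 to 1662 CPM in knockout and 4028 to 9093 CPM in wild-type cells. Of these markers, Marco had no counts in the knockout libraries. Dendritic cell markers (all 7 with counts) summed there to 2182 to 3889 CPM in knockout and 502 to 655 CPM in wild-type cells. The part of such cells in the values below was not tested. In bulk samples, fewer cells of a type and less RNA per cell cannot be told apart.

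Among fatty acid oxidation genes, the peroxisomal entry and growth genes Abcd2 and Pex11a and the auxiliary isomerase Ech1 were the members most often called lower in cells without Cebpb. Over the 12 comparisons of a Cebpb knockout group with its control, 126 of 378 member tests passed at an edgeR adjusted p under 0.05 with a lower level (33.3%), and 16 with a higher level (4.23%). Over all genes in the same comparisons, 10.3% of tests passed with a lower and 12.4% with a higher level. Peroxisomal members were lower in 45 of 106 tests (42.5%), mitochondrial members in 64 of 236 (27.1%) and the members of both compartments in 17 of 36 (47.2%). Abcd2 fell in 12 comparisons, Pex11a in 10 and Acaa1a in 9, and each other peroxisomal member in 0 to 4. The 42.5% therefore does not describe peroxisomal members as a class. Some comparisons share control libraries, so these tests are not independent. The members were also chosen with earlier results of these data known. Levels are CPM, that is, counts relative to the library total with scaling within each experiment. Fold changes are log2 of mutant over control with their standard error, and a gene is said to have risen or fallen only where it passed that threshold.

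In adult macrophages sorted by CD11b, 1 member rose and 5 fell of 32 in CD11b low knockout cells, against 8.29% and 6.83% of all 8502 genes tested. The counts were 0 and 12 in CD11b high knockout cells, against 12.2% and 11.8%. In either direction 15.1% and 24% of genes passed in these 2 comparisons. The median member log2 fold change was -0.22 and -0.36 in these comparisons, beside 0.00 and 0.01 over all genes. Knockout females of facility 1 had 2 higher and 11 lower members (12.5% and 10.8% of all genes). Those of facility 2 had 2 higher and 21 lower (24.9% and 22.7%), and knockout males 3 higher and 5 lower (7.12% and 3.76%). In the chromatin-matched set 0 members rose and 17 fell (14.6% and 12.6%). In either direction 23.2% of all genes passed at facility 1, 47.6% at facility 2, 10.9% in males and 27.2% in the chromatin-matched set. The medians were -0.30, -0.92, 0.18 and -0.66 in that order, beside 0.04, 0.02, 0.01 and 0.02 for all genes. Mitochondrially encoded genes took 0.886 to 1.22% of counts in facility 2 knockout libraries and 0.0390 to 0.0580% in their wild types, and the part of this gap in the 21 falls was not tested. Facility 2 was not alone in this, with 0.421 to 0.898% in knockout and 0.147 to 0.185% in wild-type libraries of 10-week chimeras. In E18 premature macrophages the share was instead lower without Cebpb (0.205 to 0.610%) than in wild type (0.734 to 1.44%). The part of these gaps was not tested either. Leaving out facility 1 knockout replicate 2 left 8 of the 13 calls there. Leaving out 1 male library left 2 to 4 of 8, namely 3 without either wild-type replicate, 4 without knockout replicate 1 and 2 without knockout replicate 2.

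Under LyzMCre 1 of 31 tested members fell and 0 rose (1.72% and 2.96% of all genes, or 4.68% either way). That count became 0 without either control library, and 9 or 15 without knockout replicate 1 or 2. Under CD11cCre 6 rose and 4 fell (10.3% and 6.48%, or 16.8% either way). The count was 6 in all without control replicate 1 or knockout replicate 3 and 16 without knockout replicate 4. The median member log2 fold change was 0.07 under LyzMCre and 0.02 under CD11cCre, beside 0.03 and -0.00 for all genes. In LyzMCre knockout libraries the alveolar macrophage markers summed to 4796 to 8784 CPM, against 24088 to 25884 CPM in controls, and the monocyte and interstitial macrophage markers to 8904 to 11071 CPM, against 1117 to 1474 CPM. In CD11cCre knockout libraries the first list summed to 13052 to 19552 CPM, against 42157 to 44770 CPM in controls, and the second to 6312 to 10792 CPM, against 529 to 811 CPM. The 7 neutrophil markers summed there to 357 to 453 CPM in knockout and 97.5 to 128 CPM in control libraries. Their part was not tested. Chimeric knockout cells had 0 higher and 16 lower members at 5 weeks (12.1% and 10.5%, or 22.5% either way), and 10 without wild-type replicate 3. At 10 weeks 2 were higher and 21 lower (24.5% and 21.1%, or 45.5% either way). In knockout libraries of 10 weeks the alveolar macrophage markers summed to 825 to 1946 CPM, against 15468 to 27058 CPM in wild type. The monocyte and interstitial macrophage markers summed to 17745 to 30047 CPM, against 4823 to 8886 CPM, and the dendritic cell markers to 322 to 1406 CPM, against 38.1 to 126 CPM. Epithelial markers (8 genes) reached 1253 CPM in 1 knockout library, where wild-type libraries had 81.7 to 131 CPM. The part of such cells in the 23 calls was not tested. At E18, 11 of 31 members fell in premature macrophages without Cebpb and 0 rose (9.55% and 12%, or 21.5% either way). In Ly6Chi monocytes 2 of 28 fell with 0 rises (1.64% and 1.99%, or 3.62% either way). The 2 monocyte calls became 1 without knockout replicate 2 or 4 or wild-type replicate 1 or 2, and 0 without wild-type replicate 3. The medians were -0.51 and -0.80 in chimeras at 5 and 10 weeks, -0.52 in premature macrophages and -0.11 in monocytes, beside 0.00, 0.03, -0.02 and 0.01 for all genes. Removing chromatin-set wild-type replicate 1 or 2 left 10 of that set's 17 calls.

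Of the groups in which Cebpb is not deleted, Lip CD11b low cells had 7 higher and 9 lower members (14% and 11.8% of all genes, or 25.8% either way), and 10 in all without control replicate 2. Lip CD11b high cells had 5 and 15 (20.8% and 18.5%, or 39.3% either way). The chromatin-matched Lip cells had 0 and 2 (3.1% and 1.84%, or 4.94% either way), and 1 call without control replicate 4. In that set mitochondrially encoded genes took 0.147% of counts in Lip replicate 4 and 0.146% in control replicate 3. The other libraries of the set had 0.598 to 1.11%, and the part of this split in the count was not tested. Csf2rb -/- premature macrophages had 0 higher and 11 lower of 30 (11% and 11.4%, or 22.5% either way), with a median of -0.97 beside -0.08 for all genes. That count fell to 7 without wild-type replicate 3 or 4. The 3 knockout libraries held 9387 to 9418 detected genes, against 11639 to 12557 in their controls. The alveolar macrophage markers summed to 112 to 242 CPM without Csf2rb and 984 to 1445 CPM in its controls. Red cell genes summed to 7387 to 10480.4 CPM without Csf2rb and 2099 to 3710.1 CPM in the controls. In the sorted Lip set the alveolar macrophage markers summed to 11768 to 15857 CPM in CD11b low, 4371 to 5936 CPM in CD11b high and 26383 to 28460.5 CPM in control libraries, and their part was not tested. Heterozygous cells had 0 calls in edgeR (0.634% of all genes in either direction) with 4 members at an unadjusted p under 0.05, 0 calls by DESeq2, and 1 without heterozygous replicate 1.

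Below, groups are said not to overlap where every mutant library lay beyond every control library, and in groups this small many genes do so. Of all genes tested, the mutant group lay wholly above and wholly below its control for 11.1% and 10.4% in CD11b low, 12.5% and 12.4% in CD11b high and 21.9% and 21.5% in chromatin-matched knockout cells. With 2 knockout libraries each, the shares were 33.5% and 29.9% at facility 1, 30.5% and 31% at facility 2, 30.3% and 28.1% in males and 22.9% and 23.8% under LyzMCre. They were 16.5% and 13% in heterozygotes, 14.3% and 12.2% under CD11cCre, 20.6% and 20% at 5 weeks and 21% and 20.1% at 10 weeks in chimeras. At E18 they were 16.2% and 15.3% without Cebpb, 15.7% and 21.6% without Csf2rb and 7.89% and 8.28% in monocytes. Among Lip cells they were 16.5% and 14.9% in CD11b low, 21.2% and 20% in CD11b high and 5.78% and 3.93% in chromatin-matched cells. For CD11b high against low cells they were 3.65% and 4.49% in knockout and 10.3% and 10% in Lip cells.

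**Figure D1:**
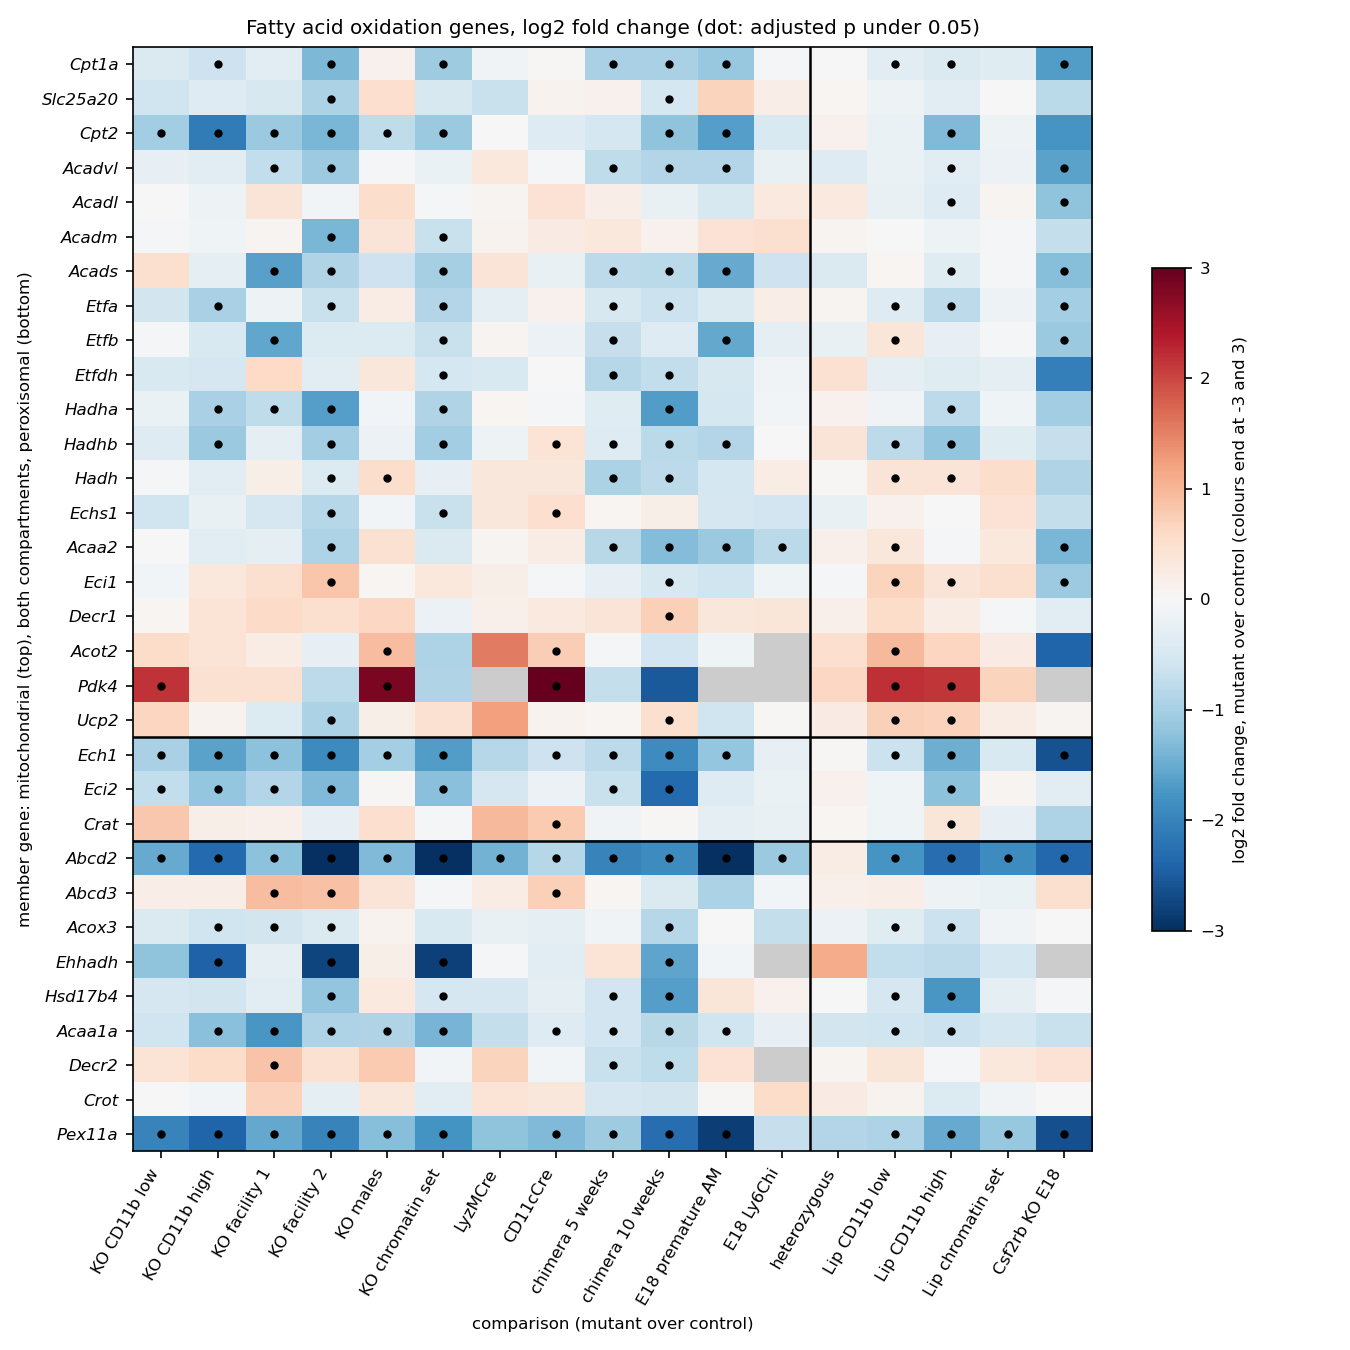
Log2 fold change of mutant over control (colour, ending at -3 and 3) for the 32 members (rows, mitochondrial above, both compartments, peroxisomal below) in 17 comparisons (columns), with a dot where the edgeR adjusted p was under 0.05 and grey where the gene was not tested. Abcd2 carries a dot in all 12 Cebpb knockout columns left of the line, and Pex11a and Ech1 in 10 each.

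Abcd2, an importer of very long chain acyl-CoA into peroxisomes, fell in 12 of 12 Cebpb knockout comparisons and in all 3 Lip comparisons. In the CD11b-sorted set it stood at 123, 95.4, 108 and 109 CPM in CD11b low and 43.4, 66.3, 60.4 and 77.3 CPM in CD11b high knockout libraries, against 204, 390.2, 364 and 293 CPM in wild type. Both knockout groups lay wholly below wild type (log2 fold change -1.52 ± 0.23, edgeR adjusted p = 7.62e-05 for CD11b low, -2.33 ± 0.23 and adjusted p = 3.46e-07 for CD11b high). Knockout females had 88.3 and 53.2 CPM, against 175 and 159.9 CPM in wild type at facility 1. At facility 2 they had 22.2 and 25.7 CPM, against 299.6, 266 and 261 CPM in wild type. Knockout males had 78.6 and 72.4 CPM, against 174 and 204 CPM in wild-type males. The log2 fold change was -1.24 ± 0.20 at facility 1, -3.51 ± 0.22 at facility 2 and -1.32 ± 0.20 in males (edgeR adjusted p = 0.000234, 1.24e-09 and 0.00021), and in none of the 3 pairs did the libraries overlap. In the chromatin-matched set the level was 26.7, 38.3 and 26.0 CPM without Cebpb and 281, 293 and 251 CPM in wild type (log2 fold change -3.18 ± 0.20, edgeR adjusted p = 6.97e-06).

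Abcd2 was also lower after conditional deletion. CD11cCre knockout libraries had 151, 110.2, 167 and 137 CPM and their controls 244, 245 and 273 CPM (log2 fold change -0.84 ± 0.14, edgeR adjusted p = 0.00112), with every knockout value below every control. LyzMCre knockout libraries had 81.8 and 114 CPM and controls 276 and 254 CPM (log2 fold change -1.41 ± 0.27, edgeR adjusted p = 0.0188). The LyzMCre call was lost without LyzMCre control replicates 1 or 2 (-1.48 to -1.37, adjusted p 0.128 to 0.239). In chimeras the gene reached 9.30, 10.4, 9.45 and 6.70 CPM in knockout cells, against 35.8, 31.7 and 41.2 CPM in wild-type cells of the same hosts at 5 weeks (log2 fold change -2.01 ± 0.19, edgeR adjusted p = 5.63e-06). At 10 weeks it reached 18, 21.2 and 22.8 CPM in knockout cells and 58.1, 67.8, 93.5 and 88.8 CPM in wild-type cells (log2 fold change -1.89 ± 0.19, edgeR adjusted p = 1.26e-06). All knockout values lay below the wild-type values at both times.

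The largest fold of any member was that of Abcd2 in E18 premature macrophages, at 5.63, 7.40, 2.27 and 1.93 CPM without Cebpb, against 183, 209 and 199 CPM in wild type (log2 fold change -5.52 ± 0.34, edgeR adjusted p = 1.67e-07). Ly6Chi monocytes of the same stage had 39.0, 29.9, 52.8 and 28.9 CPM without Cebpb and 71.3, 78.9 and 99.3 CPM in wild type (log2 fold change -1.12 ± 0.22, edgeR adjusted p = 0.00749). The monocyte call was lost without Ly6Chi wild-type replicate 3 (-0.98, adjusted p 0.0574). Without Csf2rb, premature macrophages had 17.5, 60.2 and 46.1 CPM, against 182, 228, 203 and 220.3 CPM (log2 fold change -2.34 ± 0.38, edgeR adjusted p = 0.00218). None of these 3 pairs of groups overlapped. Lip CD11b low and high libraries had 109, 116, 79.7 and 93.6 CPM and 73.6, 59.6, 70.1 and 73.2 CPM, against 297, 372 and 334 CPM in controls (log2 fold changes -1.76 ± 0.12 and -2.27 ± 0.12, edgeR adjusted p = 4.58e-17 and 1.93e-20). The chromatin-matched Lip libraries had 41.7, 59.5, 40.0 and 47.0 CPM, against 184, 195, 145 and 169.6 CPM (log2 fold change -1.88 ± 0.22, edgeR adjusted p = 3.17e-05), again without overlap.

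Pex11a, a membrane protein that drives peroxisome division, fell in 10 of the 12 knockout comparisons. CD11b low knockout libraries had 27.6, 29.5, 39.1 and 35.2 CPM and CD11b high ones 21.3, 15.3, 31.6 and 33.2 CPM, against 103, 185, 105 and 145 CPM in wild type (log2 fold change -2.01 ± 0.26, edgeR adjusted p = 1.66e-05 for CD11b low). For CD11b high the change was -2.39 ± 0.27 (adjusted p = 1.2e-06), and no knockout library reached the wild-type range. Levels were 23.9 and 26.9 CPM in facility 1 knockout females, against 89.9 and 57.2 CPM in wild type. They were 36.7 and 30.9 CPM in facility 2 knockout females, against 147, 113 and 141 CPM in wild type. The changes of -1.53 ± 0.30 and -1.997 ± 0.28 passed (edgeR adjusted p = 0.00113 and 1.85e-05). In males the level was 32.6 and 23.3 CPM without Cebpb and 73.3 and 62.9 CPM in wild type (log2 fold change -1.28 ± 0.29, edgeR adjusted p = 0.00715). The male call was lost without male wild-type replicate 1 or male knockout replicate 2 (-1.17 to -1.07, adjusted p 0.0719 to 0.121). CD11cCre knockout cells had 19.8, 17.4, 24.0 and 17.2 CPM, against 52.5, 53.4 and 42.2 CPM (log2 fold change -1.32 ± 0.15, edgeR adjusted p = 8.44e-05). In all these pairs the knockout libraries lay below their controls.

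At 5 weeks chimeric knockout cells had 4.16, 4.68, 4.78 and 4.72 CPM of Pex11a, against 9.86, 7.87 and 10.9 CPM in wild-type cells (log2 fold change -1.06 ± 0.25, edgeR adjusted p = 0.007). At 10 weeks they had 9.16, 4.82 and 9.29 CPM, against 29.7, 53.5, 28.7 and 37.8 CPM (log2 fold change -2.29 ± 0.26, edgeR adjusted p = 4.36e-06). Every wild-type library was higher at the later time, as were all 3 knockout libraries, and the groups were separate at both. E18 premature macrophages had 4.23, 7.75, 4.91 and 7.35 CPM without Cebpb and 31.2, 49.0 and 49.4 CPM in wild type (log2 fold change -2.83 ± 0.32, edgeR adjusted p = 1.85e-05). Without Csf2rb they had 11.2, 2.54 and 7.86 CPM, against 42.7, 44.2, 53.0 and 42.5 CPM (log2 fold change -2.63 ± 0.51, edgeR adjusted p = 0.00535). In the chromatin-matched set it had 14.0, 16.3 and 12.5 CPM without Cebpb and 48.0, 64.6 and 34.7 CPM in wild type (log2 fold change -1.79 ± 0.25, edgeR adjusted p = 0.000711). None of these pairs overlapped. Lip CD11b low and high cells had 50.1, 50.5, 35.6 and 44.0 CPM and 31.7, 28.8, 37.0 and 20.9 CPM, against 80.7, 82.8 and 88.3 CPM in controls. Pex11a was lower in all 3 Lip comparisons, by log2 fold changes of -0.92 ± 0.15 in CD11b low, -1.50 ± 0.17 in CD11b high and -1.13 ± 0.26 in chromatin-matched cells. The last call was lost without chromatin-set Lip control replicate 4 (-0.99, adjusted p 0.0677). Under LyzMCre (log2 fold change -1.20 ± 0.29, adjusted p = 0.0547) and in Ly6Chi monocytes (-0.69 ± 0.39, adjusted p = 0.397) it did not pass.

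**Figure D2:**
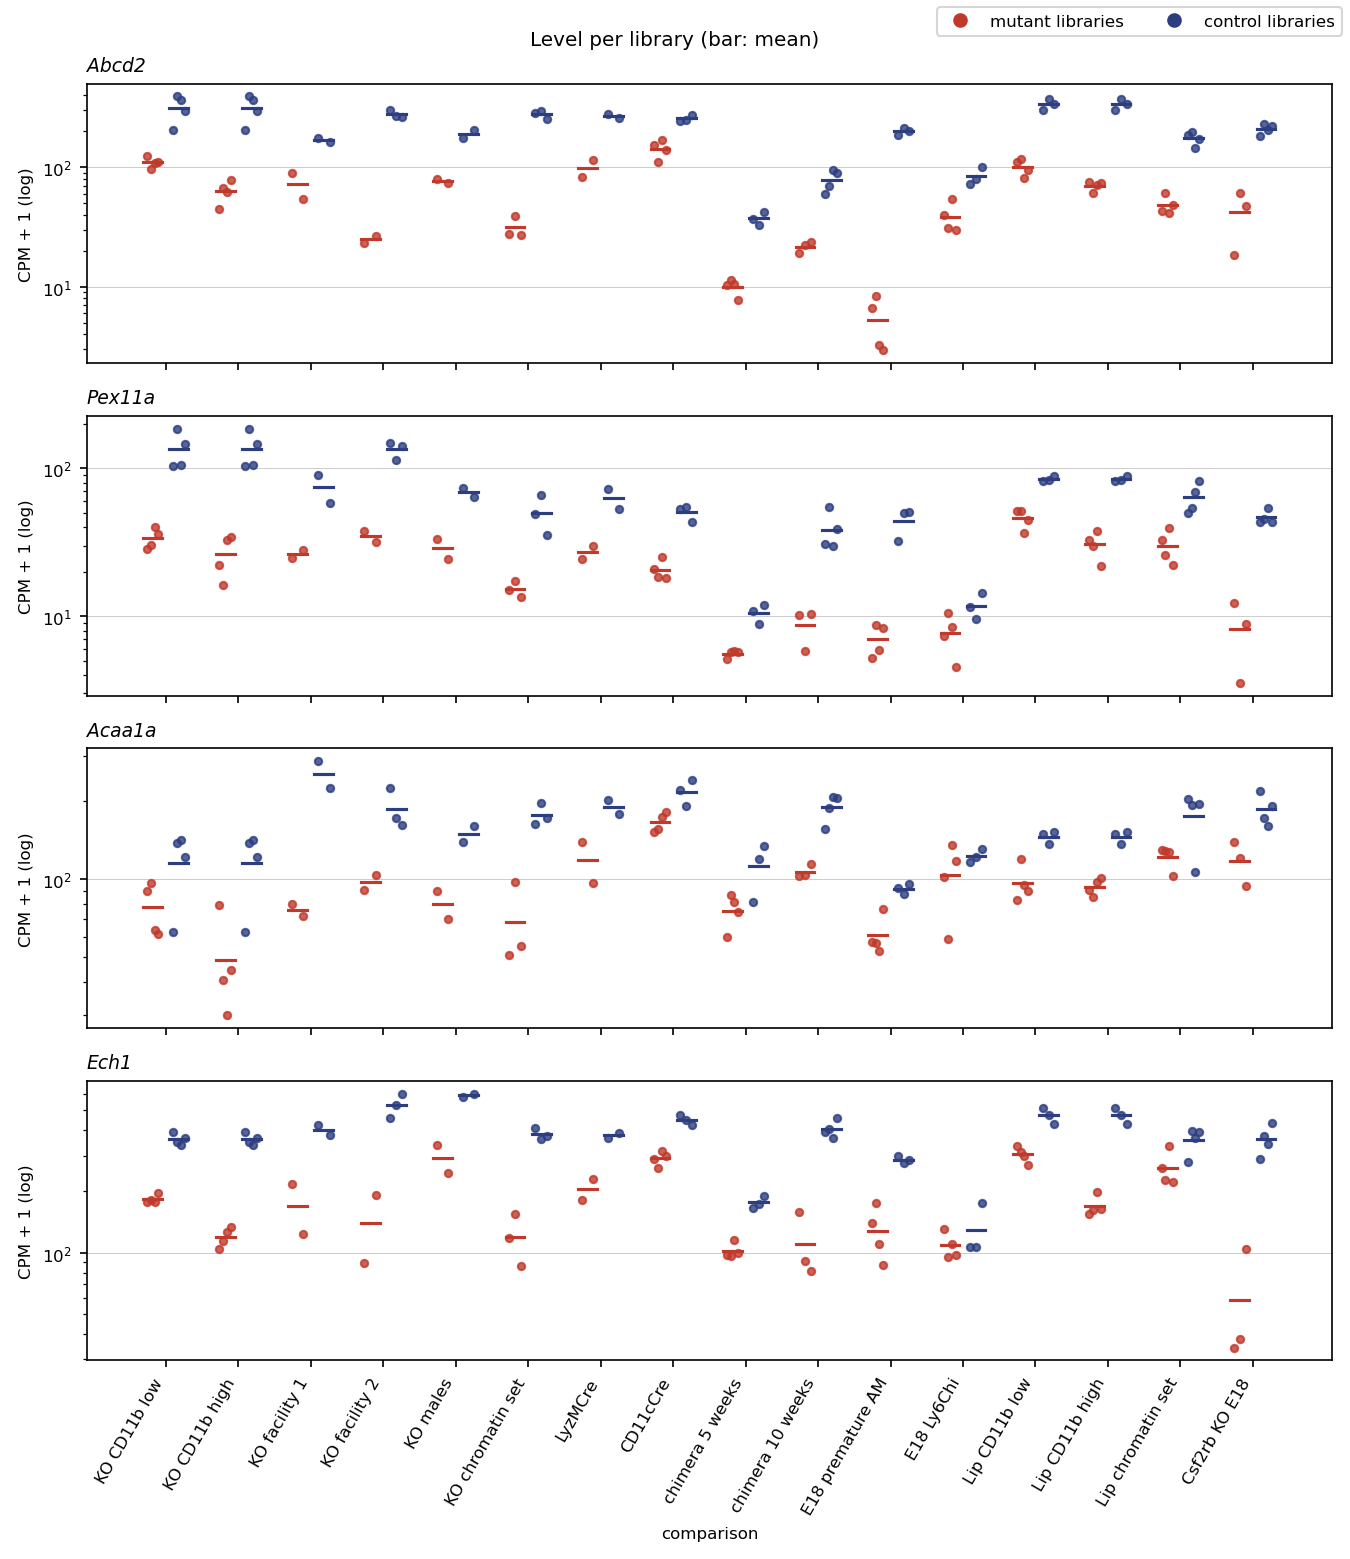
CPM + 1 (log axis) of Abcd2, Pex11a, Acaa1a and Ech1 in every library of 16 comparisons, mutant libraries (red) left of their controls (blue), bars at the mean. The 4 E18 knockout libraries of Abcd2 sit at 1.93 to 7.40 CPM (drawn 1 higher), below all 3 wild-type libraries.

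Ech1 and Acaa1a each had a C/EBPβ ChIP peak over the start of the gene and a match to the C/EBP motif in the promoter, and these promoters are printed for that pairing. The sequences are RefSeq's for GRCm38.p6, from 250 bases before to 50 after the start on the plus strand, at chr7:28825088-28825387 for Ech1 and chr9:119341044-119341343 for Acaa1a. Capitals mark the match to the C/EBP motif TTGCNNAA (either strand), which 3 of 27 member promoters and 10.1% of 16222 promoters hold, and a match does not show a bound site.
Ech1: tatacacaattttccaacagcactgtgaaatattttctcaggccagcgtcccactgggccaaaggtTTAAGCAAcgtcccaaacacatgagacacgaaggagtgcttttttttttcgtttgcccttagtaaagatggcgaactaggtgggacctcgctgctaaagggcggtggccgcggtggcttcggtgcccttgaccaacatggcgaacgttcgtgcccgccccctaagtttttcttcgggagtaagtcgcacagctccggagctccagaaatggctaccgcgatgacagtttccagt
Acaa1a: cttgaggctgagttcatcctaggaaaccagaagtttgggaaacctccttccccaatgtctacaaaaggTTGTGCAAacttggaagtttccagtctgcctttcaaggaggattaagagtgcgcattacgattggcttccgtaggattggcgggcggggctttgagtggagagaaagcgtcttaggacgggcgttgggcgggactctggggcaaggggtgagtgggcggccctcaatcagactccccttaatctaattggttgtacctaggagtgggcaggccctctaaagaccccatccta
The match begins 184 bases before the start in Ech1 and 182 before it in Acaa1a, and the peak summits of the first ChIP sample lie 91 and 66 bases before the start.

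Ech1, an isomerase for unsaturated fatty acids with double bonds at odd positions, fell in 10 of the 12 knockout comparisons. It had 177, 180.4, 177 and 196 CPM in CD11b low and 103, 113, 125 and 133 CPM in CD11b high knockout cells, against 388, 348, 336 and 363 CPM in wild type (log2 fold change -0.97 ± 0.17, edgeR adjusted p = 0.00043 and, for CD11b high, -1.60 ± 0.17 with adjusted p = 9.97e-07). The groups were separate, with CD11b high below CD11b low. In females it had 215 and 123 CPM without Cebpb and 424 and 378 CPM in wild type at facility 1 (log2 fold change -1.24 ± 0.30, edgeR adjusted p = 0.00665). The facility 1 call was lost without facility 1 knockout replicate 2 (-0.91, adjusted p 0.0958). At facility 2 it had 88.0 and 191 CPM without Cebpb and 455, 531 and 602 CPM in wild type (log2 fold change -1.90 ± 0.29, edgeR adjusted p = 5.3e-05). Males had 337 and 246 CPM without Cebpb and 583 and 603 CPM in wild type (log2 fold change -1.02 ± 0.30, edgeR adjusted p = 0.036). Each male library left out ended that call, without male wild-type replicates 1 or 2 or male knockout replicates 1 or 2 (-1.26 to -0.82, adjusted p 0.0644 to 0.284). The chromatin-matched libraries had 117, 153 and 85.5 CPM without Cebpb and 408, 359.7 and 373 CPM in wild type (log2 fold change -1.68 ± 0.22, edgeR adjusted p = 0.000418). Knockout libraries were below wild type throughout.

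CD11cCre knockout cells had 289, 259, 314 and 297 CPM of Ech1, against 475, 449 and 422 CPM in controls (log2 fold change -0.63 ± 0.11, edgeR adjusted p = 0.00158). In chimeras knockout cells had 96.4, 95.5, 115 and 99.3 CPM, against 165, 173 and 189 CPM in wild type at 5 weeks. At 10 weeks they had 158, 90.4 and 80.5 CPM, against 390.2, 404, 364 and 459 CPM (log2 fold changes -0.79 ± 0.18 and -1.88 ± 0.19). At E18 the levels were 139, 175, 109.6 and 86.3 CPM without Cebpb and 298, 276 and 283 CPM in wild type (log2 fold change -1.17 ± 0.23, edgeR adjusted p = 0.00222). They were 33.2, 36.8 and 103 CPM without Csf2rb and 289, 375, 339 and 432 CPM in its controls (log2 fold change -2.62 ± 0.41, edgeR adjusted p = 0.00176), with 1 of the 3 Csf2rb -/- libraries well above the others. Lip cells had 334, 310.4, 299 and 268 CPM as CD11b low and 154, 161, 199 and 163 CPM as CD11b high, against 511, 475 and 428 CPM in controls (log2 fold changes -0.64 ± 0.10 and -1.47 ± 0.11).

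Acaa1a, the thiolase that ends each round of peroxisomal oxidation, fell in 9 of the 12 knockout comparisons, but its counts are uncertain, since the near-identical Acaa1b can share reads. In CD11b high knockout cells it had 78.5, 40.0, 28.8 and 43.6 CPM, against 61.6, 137, 141 and 121 CPM in wild type (log2 fold change -1.25 ± 0.29, edgeR adjusted p = 0.00336), and 1 wild-type library lay within the knockout range. Facility 1 knockout females had 79.3 and 71.2 CPM and wild types 285 and 224 CPM (log2 fold change -1.76 ± 0.20, edgeR adjusted p = 5.05e-06). Facility 2 knockout females had 90.1 and 103 CPM and wild types 224, 172 and 160.5 CPM (log2 fold change -0.94 ± 0.18, edgeR adjusted p = 0.000448). Neither female pair overlapped. In males it had 89.0 and 69.4 CPM without Cebpb and 138 and 159 CPM in wild type (log2 fold change -0.91 ± 0.20, edgeR adjusted p = 0.00473). The male call was lost without male wild-type replicate 2 or male knockout replicate 2 (-0.80 to -0.75, adjusted p 0.079 to 0.108). The chromatin-matched set gave 50.1, 97.0 and 54.2 CPM without Cebpb and 163, 195 and 172 CPM in wild type (log2 fold change -1.40 ± 0.25, edgeR adjusted p = 0.00253). Smaller falls passed in CD11cCre cells (-0.40), in chimeras at 5 and 10 weeks (-0.57 and -0.83), in E18 premature macrophages (-0.60) and in both Lip CD11b groups (-0.60 and -0.64). The CD11cCre call was lost without CD11cCre control replicates 1 or 3 or CD11cCre knockout replicates 1 or 2 or 3 (-0.42 to -0.32, adjusted p 0.0757 to 0.206). The 5-week call was lost without 5-week knockout replicates 1 or 4 or 5-week wild-type replicates 2 or 3 (-0.56 to -0.43, adjusted p 0.0513 to 0.135). The E18 call was lost without E18 wild-type replicates 1 or 2 or 3 or E18 knockout replicates 1 or 2 or 3 (-0.60 to -0.50, adjusted p 0.0785 to 0.144).

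Ehhadh, a bifunctional peroxisomal enzyme and a classical PPAR target in liver, was at low levels throughout and fell in 4 of 11 knockout comparisons in which it was tested. It had 1.52, 1.70, 4.12 and 4.46 CPM in CD11b high knockout cells, against 36.2, 13.7, 10.7 and 9.32 CPM in wild type (log2 fold change -2.44 ± 0.62, edgeR adjusted p = 0.0064), with wild-type replicate 1 well above the other 3. In facility 2 females it had 2.56 and 2.597 CPM without Cebpb and 19.0, 18.02 and 15.5 CPM in wild type (log2 fold change -2.75 ± 0.37, edgeR adjusted p = 9.55e-06). In the chromatin-matched set it had 2.09, 4.07 and 2.15 CPM without Cebpb and 20.8, 14.7 and 21.1 CPM in wild type (log2 fold change -2.80 ± 0.33, edgeR adjusted p = 0.000237). These groups did not overlap. Facility 1 females had 13.3 and 7.79 CPM without Cebpb and 15.6 and 10.5 CPM in wild type. Males had 21.7 and 28.8 CPM without Cebpb and 24.5 and 20.2 CPM in wild type, and both pairs had overlapping libraries and no call. At 10 weeks chimeras had 1.45, 0.455 and 1.16 CPM in knockout and 4.95, 2.31, 2.89 and 0.989 CPM in wild-type cells (log2 fold change -1.57 ± 0.62). That call was lost without 10-week knockout replicates 2 or 3 or 10-week wild-type replicates 1 or 2 or 3 (-1.75 to -1.07, adjusted p 0.0582 to 0.211).

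Hsd17b4, the other bifunctional enzyme of peroxisomes, fell in 4 of 12 knockout comparisons and in both Lip CD11b groups. Facility 2 females had 35.9 and 49.5 CPM without Cebpb, against 98.9, 93.5 and 102 CPM (log2 fold change -1.18 ± 0.18, edgeR adjusted p = 3.23e-05). Among chimeric cells, knockouts had 63.9, 64.3, 77.7 and 54.8 CPM, against 94.0, 97.2 and 98.3 CPM in wild type at 5 weeks (-0.57 ± 0.18). They had 72.2, 36.5 and 58.3 CPM, against 185, 149, 178 and 185 CPM at 10 weeks (log2 fold change -1.65 ± 0.19, edgeR adjusted p = 3.59e-06). None of these pairs overlapped. The 5-week call was lost without 5-week knockout replicates 1 or 2 or 4 or 5-week wild-type replicates 1 or 2 or 3 (-0.59 to -0.49, adjusted p 0.0553 to 0.0904). Lip CD11b high cells had 85.6, 93.2, 97.1 and 78.0 CPM and CD11b low cells 219, 210.2, 225 and 179 CPM, against 244, 318 and 319 CPM in controls (log2 fold changes -1.74 ± 0.12 and -0.51 ± 0.11). The 3 groups did not overlap one another. The chromatin-set call (-0.50 ± 0.16) was lost without chromatin-set wild-type replicates 1 or 2 or 3 or chromatin-set knockout replicates 1 or 2 (-0.57 to -0.38, adjusted p 0.0878 to 0.17).

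Acox3, an oxidase for branched chains that starts the peroxisomal cycle, had falls of under 1 on the log2 scale. It passed in CD11b high (-0.61), facility 1 (-0.56), facility 2 (-0.42) and 10-week chimeric knockout cells (-0.85), and in Lip CD11b low (-0.37) and high (-0.65) cells. At 10 weeks it had 124, 74.2 and 92.9 CPM in knockout cells, against 180.2, 171, 166 and 181 CPM in wild type, with no overlap. In CD11b high cells Acox3 did not pass without wild-type replicate 1 or CD11b high replicates 1 or 2 (-0.59 to -0.47, adjusted p 0.072 to 0.106). The facility 1 call was lost without facility 1 wild-type replicate 1 or facility 1 knockout replicate 1 (-0.50 to -0.46, adjusted p 0.0878 to 0.0989). The facility 2 call was lost without facility 2 wild-type replicate 2 or facility 2 knockout replicate 2 (-0.41 to -0.32, adjusted p 0.0554 to 0.141).

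The other peroxisomal members did not fall as a rule. Abcd3, an importer related to Abcd2, rose in facility 1 females (26.2 and 26.9 CPM without Cebpb, 17.0 and 11.3 CPM in wild type, 0.92 ± 0.27). It rose in facility 2 females (34.6 and 26.8 CPM without Cebpb, 14.5, 15.4 and 19.3 CPM in wild type, 0.89 ± 0.23) and in CD11cCre cells (39.7, 31.8, 38.3 and 25.6 CPM in knockout, 21.9, 17.0 and 23.4 CPM in control libraries, 0.72 ± 0.18). These groups did not overlap. The first call was lost without facility 1 wild-type replicate 2 or facility 1 knockout replicates 1 or 2 (0.62 to 0.92, adjusted p 0.0635 to 0.259). The third was lost without CD11cCre control replicates 1 or 2 or CD11cCre knockout replicate 3 (0.59 to 0.75, adjusted p 0.0506 to 0.0727). Crot, which exports shortened chains as carnitine esters, passed in 0 of the 17 comparisons with a control, and its unadjusted p was under 0.05 in 1 of them, with 0 calls by DESeq2. Decr2, a reductase for unsaturated chains, rose in facility 1 females (21.0 and 19.8 CPM without Cebpb, 9.36 and 12.9 CPM in wild type, 0.87 ± 0.29). That call was lost without facility 1 wild-type replicates 1 or 2 or facility 1 knockout replicates 1 or 2 (0.66 to 1.104, adjusted p 0.0659 to 0.205), and DESeq2 gave an adjusted p of 0.0507. It fell in chimeras at 5 weeks (11.8, 12.7, 11.8 and 10.8 CPM in knockout, 18.6, 18.7 and 18.7 CPM in wild-type cells, -0.67 ± 0.19) and at 10 weeks (-0.76). The 5-week call was lost without 5-week knockout replicate 4 or 5-week wild-type replicates 2 or 3 (-0.67 to -0.62, adjusted p 0.0509 to 0.0581).

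Of the other members found in both compartments, Eci2, an isomerase for unsaturated chains, fell in 7 of 12 knockout comparisons. CD11b low and high knockout cells had 119, 95.4, 127 and 153 CPM and 56.4, 89.3, 119 and 106 CPM, against 214, 215, 192 and 206 CPM in wild type (log2 fold changes -0.74 ± 0.22 and -1.16 ± 0.22). In CD11b low cells Eci2 did not pass without wild-type replicates 1 or 2 or 4 or CD11b low replicates 1 or 2 or 3 (-0.74 to -0.64, adjusted p 0.0544 to 0.0797). Females had 106 and 84.8 CPM without Cebpb, against 164 and 190.1 CPM in wild type at facility 1. At facility 2 they had 74.3 and 84.3 CPM, against 207, 189 and 202 CPM (-0.89 ± 0.18 and -1.32 ± 0.17). Males had 148 and 151 CPM without Cebpb and 158 and 135 CPM in wild type, with overlapping libraries and a log2 fold change of 0.02 ± 0.18. At 5 weeks chimeras had 57.1, 64.2, 76.4 and 57.3 CPM in knockout and 100.1, 97.1 and 107 CPM in wild-type cells (-0.67 ± 0.20). The 5-week call was lost without 5-week knockout replicates 1 or 4 or 5-week wild-type replicates 1 or 2 or 3 (-0.70 to -0.62, adjusted p 0.0555 to 0.0793). Knockout cells had 64.0, 32.01 and 29.2 CPM, against 208, 235, 186 and 212 CPM at 10 weeks (log2 fold change -2.34 ± 0.22, edgeR adjusted p = 6.77e-07). Lip CD11b high cells had 107, 107, 94.8 and 108 CPM, against 265, 229.5 and 245 CPM in controls (log2 fold change -1.24 ± 0.12, edgeR adjusted p = 6.06e-12). Lip CD11b low cells, at 266, 252, 209 and 185 CPM, did not pass. Crat, the carnitine acetyltransferase, rose in CD11cCre cells, at 146, 147, 139 and 139.7 CPM in knockout and 90.9, 81.4 and 78.3 CPM in control libraries (log2 fold change 0.78 ± 0.11, edgeR adjusted p = 0.000342).

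Of the carnitine shuttle, Cpt2, which releases the acyl-CoA inside mitochondria, fell in 8 of 12 knockout comparisons, the most of any member that is mitochondrial alone. CD11b low and high knockout cells had 27.6, 33.0, 35.7 and 42.8 CPM and 18.3, 12.8, 13.7 and 20.3 CPM, against 93.7, 72.6, 60.2 and 61.1 CPM in wild type (log2 fold changes -1.05 ± 0.23 and -2.09 ± 0.24, edgeR adjusted p = 0.00349 and 2.21e-06). Facility 1 knockout females had 35.1 and 24.3 CPM, against 64.9 and 64.6 CPM in wild type. Facility 2 knockout females had 22.2 and 37.0 CPM, against 73.2, 74.1 and 91.1 CPM (-1.12 ± 0.23 and -1.37 ± 0.21). The same direction passed in males (-0.76), in the chromatin-matched set (-1.11) and in 10-week chimeras (-1.20). The male call was lost without male wild-type replicates 1 or 2 or male knockout replicates 1 or 2 (-0.87 to -0.66, adjusted p 0.0917 to 0.242). The chromatin-set call was lost without chromatin-set wild-type replicates 1 or 2 (-1.02, adjusted p 0.0566 to 0.0637). At E18 premature macrophages had 18.5, 22.2, 6.42 and 21.9 CPM without Cebpb and 42.4, 73.2 and 49.9 CPM in wild type (log2 fold change -1.66 ± 0.34, edgeR adjusted p = 0.00305). In these pairs every knockout library lay below every control.

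Cpt1a, the rate-limiting step of the shuttle, fell in 6 knockout comparisons. Facility 2 females had 77.3 and 89.1 CPM without Cebpb and 206, 209.8 and 223 CPM in wild type (log2 fold change -1.35 ± 0.19, edgeR adjusted p = 1.53e-05). Facility 1 females had 153 and 148 CPM without Cebpb and 202 and 171 CPM in wild type with no call (-0.31 ± 0.20). It also fell in CD11b high cells (82.3, 98.7, 83.7 and 99.6 CPM, against 111, 171, 146 and 135 CPM, -0.62 ± 0.19). In CD11b high cells Cpt1a did not pass without wild-type replicates 2 or 3 or CD11b high replicate 1 (-0.61 to -0.52, adjusted p 0.0512 to 0.0858). Chimeric knockout cells had 61.5, 40.8, 40.4 and 34.8 CPM, against 93.0, 82.9 and 84.6 CPM at 5 weeks (log2 fold change -0.97 ± 0.26, edgeR adjusted p = 0.0153). Other falls passed in 10-week chimeras (-0.97), the chromatin-matched set (-1.06) and E18 premature macrophages without Cebpb (-1.14) or without Csf2rb (-1.67). Slc25a20, the carrier between both transferases, fell in facility 2 females (38.5 and 22.5 CPM without Cebpb, 52.9, 60.2 and 56.1 CPM in wild type, -0.95 ± 0.24) and in 10-week chimeras (-0.52). The facility 2 call was lost without facility 2 knockout replicate 2 (-0.56, adjusted p 0.107). The 10-week call was lost without 10-week knockout replicates 2 or 3 (-0.49 to -0.42, adjusted p 0.0549 to 0.074).

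The acyl-CoA dehydrogenases, which are named for the chain length they take, did not move together. Acads, for short chains, fell in 6 knockout comparisons. It had 39.9 and 24.0 CPM in facility 1 knockout females, against 72.9 and 126 CPM (log2 fold change -1.63 ± 0.34, edgeR adjusted p = 0.00202). It had 40.8, 43.0, 28.3 and 26.5 CPM in E18 knockout macrophages, against 113, 92.7 and 89.7 CPM (log2 fold change -1.51 ± 0.23, edgeR adjusted p = 0.000266). Chimeric knockout cells had 40.6, 41.7, 41.2 and 34.6 CPM, against 67.5, 72.2 and 65.2 CPM at 5 weeks (log2 fold change -0.79 ± 0.16, edgeR adjusted p = 0.00201). Knockout libraries were the lower ones in each pair. The Acads calls of facility 2 females and of the chromatin-matched set were each lost with at least 1 library left out. Acadvl, for very long chains, fell in 5, with 41.4 and 40.7 CPM in facility 2 knockout females, against 79.1, 90.5 and 94.2 CPM (log2 fold change -1.100 ± 0.17, edgeR adjusted p = 6.29e-05). It had 42.3, 40.1, 39.2 and 43.6 CPM in 5-week knockout cells, against 65.2, 69.2 and 75.6 CPM (log2 fold change -0.76 ± 0.18, edgeR adjusted p = 0.00556). Its calls in facility 1 females and in E18 premature macrophages without Cebpb were each lost with at least 1 library left out. Acadm, for medium chains, fell in facility 2 females, at 54.3 and 57.2 CPM without Cebpb and 152, 143 and 140.3 CPM in wild type (log2 fold change -1.37 ± 0.22, edgeR adjusted p = 6.23e-05), and in the chromatin-matched set (-0.68). The chromatin-set call was lost without chromatin-set wild-type replicates 1 or 2 or 3 or chromatin-set knockout replicate 2 (-0.76 to -0.50, adjusted p 0.0794 to 0.164). Acadl, for long chains, passed in 0 of 12 knockout comparisons by edgeR or DESeq2 (3 had an unadjusted p under 0.05), with log2 fold changes of -0.49 to 0.54. It fell in Lip CD11b high (-0.40) and Csf2rb -/- cells (-1.20).

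The electron acceptors of these enzymes were split as well. Etfa fell in 5 knockout comparisons and Etfb in 4. In CD11b high knockout cells Etfa had 48.0, 89.3, 94.7 and 88.7 CPM, against 173, 196, 113 and 145 CPM in wild type (log2 fold change -0.96 ± 0.25, edgeR adjusted p = 0.00647). It had 66.4, 56.7 and 62.7 CPM in 10-week knockout cells, against 96.3, 91.6, 105 and 96.2 CPM (log2 fold change -0.65 ± 0.13, edgeR adjusted p = 0.000527). Etfb fell in facility 1 females, at 66.1 and 50.5 CPM without Cebpb and 166 and 180.3 CPM in wild type (log2 fold change -1.57 ± 0.25, edgeR adjusted p = 0.000206). It also fell at E18, at 73.2, 79.6, 59.0 and 47.4 CPM without Cebpb and 212, 157 and 193 CPM in wild type (log2 fold change -1.53 ± 0.22, edgeR adjusted p = 0.000165). All 4 pairs were free of overlap. The Etfa call of facility 2 females was lost with at least 1 library left out. So were the Etfb calls of 5-week chimeras and of the chromatin-matched set. Etfdh fell in both chimeras (-0.87 and -0.75) and in the chromatin-matched set (-0.52). The last call was lost without chromatin-set wild-type replicates 1 or 2 or 3 or chromatin-set knockout replicates 1 or 2 (-0.60 to -0.48, adjusted p 0.0538 to 0.155).

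Hadha and Hadhb encode the 2 subunits of the mitochondrial trifunctional protein, and their RefSeq starts lie 273 bases apart on opposite strands of chromosome 5. Hadha had 77.0, 75.7, 98.9 and 109 CPM in CD11b high knockout cells, against 189, 167, 177 and 174 CPM (log2 fold change -0.97 ± 0.19, edgeR adjusted p = 0.000544). It had 49.1 and 46.8 CPM in facility 2 knockout females, against 133, 159.5 and 157 CPM (log2 fold change -1.65 ± 0.19, edgeR adjusted p = 1.51e-06). At facility 1 it had 104 and 64.7 CPM without Cebpb and 139 and 148 CPM in wild type (-0.77 ± 0.19). That call was lost without facility 1 knockout replicate 2 (-0.48, adjusted p 0.123). At 10 weeks knockout cells had 95.8, 46.7 and 30.9 CPM, against 169, 176, 176 and 220.4 CPM (log2 fold change -1.69 ± 0.26, edgeR adjusted p = 0.0001), with 1 knockout library above the other 2 and all below wild type. Hadhb fell in 6 knockout comparisons and rose in CD11cCre cells. It had 64.1 and 93.7 CPM in facility 2 knockout females, against 139, 188 and 167 CPM (log2 fold change -1.05 ± 0.27, edgeR adjusted p = 0.00391). Its level was 29.7, 34.0 and 38.3 CPM in chromatin-set knockout cells, against 65.8, 66.1 and 79.1 CPM (log2 fold change -1.05 ± 0.17, edgeR adjusted p = 0.0015). CD11cCre cells had 83.9, 84.4, 88.7 and 66.1 CPM in knockout and 57.8, 59.97 and 66.1 CPM in control libraries (0.40 ± 0.13). The CD11cCre call was lost without CD11cCre control replicates 1 or 2 or 3 or CD11cCre knockout replicates 1 or 2 or 3 (0.36 to 0.46, adjusted p 0.0885 to 0.201). Falls of Hadhb in CD11b high, E18 premature macrophage and 5-week chimeric knockout cells were each lost with at least 1 library left out. Lip CD11b low and high cells had 45.21, 46.0, 44.7 and 41.1 CPM and 33.4, 34.6, 35.4 and 28.9 CPM, against 71.4, 81.1 and 72.8 CPM (-0.78 ± 0.14 and -1.19 ± 0.15), both below all controls.

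Acaa2, the mitochondrial thiolase, fell in 5 knockout comparisons, among them both fetal cell types. Premature macrophages had 50.9, 55.7, 57.8 and 31.7 CPM without Cebpb and 94.1, 106 and 119 CPM in wild type (log2 fold change -1.12 ± 0.23, edgeR adjusted p = 0.00258). Ly6Chi monocytes had 54.7, 40.7, 52.8 and 38.5 CPM without Cebpb and 88.2, 79.1 and 80.4 CPM in wild type (-0.81 ± 0.19). The monocyte call was lost without Ly6Chi wild-type replicates 1 or 2 or 3 or Ly6Chi knockout replicates 2 or 4 (-0.84 to -0.73, adjusted p 0.0576 to 0.116). Chimeric knockout cells had 92.4, 48.4 and 45.3 CPM at 10 weeks, against 164, 149.9, 135 and 157 CPM (log2 fold change -1.29 ± 0.20, edgeR adjusted p = 7.87e-05). Hadh, the dehydrogenase for short hydroxyacyl chains, fell in chimeras at 5 weeks (33.8, 25.6, 24.0 and 23.5 CPM in knockout, 60.2, 50.3 and 44.2 CPM in wild-type cells, log2 fold change -0.95 ± 0.21, edgeR adjusted p = 0.00492) and at 10 weeks (-0.79). The 10-week call was lost without 10-week knockout replicate 2 (-0.61, adjusted p 0.0553). Facility 2 females also had a lower level (89.3 and 81.6 CPM without Cebpb, 120.2, 109 and 109.8 CPM in wild type, -0.41 ± 0.15), a call lost without facility 2 wild-type replicates 1 or 2 or 3 or facility 2 knockout replicate 2 (-0.43 to -0.34, adjusted p 0.0577 to 0.159). Hadh was higher in knockout males (145 and 129 CPM, against 93.5 and 96.1 CPM in wild type, 0.53 ± 0.16). The male call was lost without male wild-type replicates 1 or 2 or male knockout replicates 1 or 2 (0.46 to 0.60, adjusted p 0.114 to 0.253). It was higher in Lip CD11b low (81.4, 87.4, 80.9 and 73.3 CPM) and high (97.6, 79.8, 86.3 and 54.7 CPM) cells too, against 70.3, 62.7 and 53.5 CPM in controls (0.39 ± 0.15 and 0.38 ± 0.15), and the high group overlapped the controls. The CD11b low call was lost without Lip control replicates 2 or 3 or Lip CD11b low replicates 1 or 2 or 3 (0.28 to 0.41, adjusted p 0.0638 to 0.267). The CD11b high one was lost without Lip control replicates 2 or 3 or Lip CD11b high replicates 1 or 2 or 3 (0.26 to 0.39, adjusted p 0.0717 to 0.25), and DESeq2 gave neither. Echs1, the short-chain hydratase, fell in facility 2 females (-0.85) and in the chromatin-matched set (-0.66). The chromatin-set call was lost without chromatin-set wild-type replicates 1 or 2 or 3 or chromatin-set knockout replicates 1 or 3 (-0.76 to -0.54, adjusted p 0.056 to 0.171). Echs1 rose in CD11cCre cells, at 91.8, 107, 96.1 and 97.3 CPM in knockout and 69.4, 66.7 and 69.4 CPM in control libraries (log2 fold change 0.52 ± 0.11, edgeR adjusted p = 0.00571).

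Some mitochondrial members were higher in certain mutants. Eci1, an isomerase like Eci2 but mitochondrial alone, rose in facility 2 females, at 129 and 121 CPM without Cebpb and 70.5, 69.4 and 70.0 CPM in wild type (log2 fold change 0.84 ± 0.17, edgeR adjusted p = 0.000491). It also rose in Lip CD11b low cells (64.1, 71.6, 73.1 and 77.1 CPM, against 48.6, 41.4 and 47.4 CPM, 0.66 ± 0.14) and in Lip CD11b high cells (0.39 ± 0.15). It fell in 10-week chimeras (59.5, 41.0 and 38.3 CPM in knockout, 64.0, 61.1, 63.8 and 66.9 CPM in wild-type cells, -0.47 ± 0.16) and in Csf2rb -/- cells (30.9, 76.1 and 54.3 CPM, against 99.2, 124, 118 and 116 CPM, -1.09 ± 0.32). The Lip CD11b high call was lost without Lip control replicates 2 or 3 or Lip CD11b high replicates 3 or 4 (0.32 to 0.43, adjusted p 0.0578 to 0.159) and by DESeq2, the 10-week call without 10-week knockout replicates 2 or 3 or 10-week wild-type replicate 4 (-0.45 to -0.35, adjusted p 0.0546 to 0.114) and the Csf2rb call without Csf2rb wild-type replicates 1 or 2 or 3 or 4 or Csf2rb knockout replicate 3 (-1.16 to -1.05, adjusted p 0.0605 to 0.0889). Decr1, the mitochondrial dienoyl-CoA reductase, had a positive log2 fold change in 11 of 12 knockout comparisons but passed in 1. In that one, the 10-week chimeras, it had 12.7, 17.0 and 15.5 CPM in knockout and 7.90, 7.15, 9.06 and 13.1 CPM in wild-type cells (0.71 ± 0.25). The groups overlapped, and the call was lost without 10-week knockout replicates 2 or 3 or 10-week wild-type replicates 1 or 2 or 3 (0.62 to 0.70, adjusted p 0.056 to 0.102). Ucp2, an inner membrane carrier, rose in Lip CD11b low (3079, 3277, 3167 and 3685 CPM) and high (3238, 3377, 3095 and 3409 CPM) cells, against 2124, 2079.6 and 1878 CPM in controls (0.70 ± 0.09 and 0.69 ± 0.09), with both Lip groups above all controls. In knockout cells it rose at 10 weeks (0.49) and fell in facility 2 females (-0.95). The 10-week call was lost without 10-week knockout replicate 2 or 10-week wild-type replicates 2 or 3 or 4 (0.26 to 0.49, adjusted p 0.0757 to 0.288). The facility 2 call was lost without facility 2 wild-type replicates 2 or 3 or facility 2 knockout replicate 1 (-0.89 to -0.72, adjusted p 0.0599 to 0.164).

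Pdk4, a kinase that inhibits pyruvate dehydrogenase and so favours fat over glucose as fuel, gave the largest rises among the members called. CD11b low knockout cells had 42.2, 12.1, 20.4 and 22.6 CPM and CD11b high ones 4.57, 5.10, 15.1 and 7.93 CPM, against 5.36, 5.48, 6.69 and 4.14 CPM in wild type (log2 fold change 2.18 ± 0.44, edgeR adjusted p = 0.00145 for CD11b low, no call for CD11b high). Males had 32.7 and 66.4 CPM without Cebpb and 8.17 and 5.92 CPM in wild type (log2 fold change 2.83 ± 0.49, edgeR adjusted p = 0.000871). CD11cCre cells had 20.1, 36.0, 20.4 and 28.4 CPM in knockout and 2.95, 3.48 and 2.80 CPM in control libraries (log2 fold change 3.07 ± 0.27, edgeR adjusted p = 9.54e-06). In these 3 pairs every mutant library was above its controls. Females had 9.35 and 7.34 CPM without Cebpb and 8.50 and 3.83 CPM in wild type at facility 1. At facility 2 they had 3.42 and 7.89 CPM without Cebpb and 9.78, 12.3 and 10.8 CPM in wild type, and neither pair gave a call. Chimeric cells of 10 weeks had 10, 0 and 0 counts in knockout and 31, 12, 24 and 6 in wild-type libraries (-2.52 ± 1.03, edgeR adjusted p = 0.0565), without a call. Lip CD11b low and high cells had 4.11, 6.03, 13.3 and 8.47 CPM and 4.28, 10.6, 3.08 and 14.5 CPM, against 0, 1.73 and 2.76 CPM in controls (log2 fold changes 2.18 ± 0.59 and 2.14 ± 0.62, edgeR adjusted p = 0.00526 and 0.00583). Acot2, a mitochondrial thioesterase whose counts are uncertain beside its near-identical neighbour Acot1, rose in males (33.4 and 38.0 CPM without Cebpb, 19.2 and 18.3 CPM in wild type, 0.93 ± 0.27). It also rose in CD11cCre cells (19.8, 20.1, 29.4 and 31.7 CPM in knockout, 12.9, 16.2 and 15.5 CPM in control libraries, 0.73 ± 0.20). The male call was lost without male wild-type replicates 1 or 2 or male knockout replicates 1 or 2 (0.83 to 1.03, adjusted p 0.0734 to 0.196). The CD11cCre call was lost without CD11cCre control replicates 1 or 3 or CD11cCre knockout replicate 3 (0.64 to 0.76, adjusted p 0.0719 to 0.115).

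**Figure D3:**
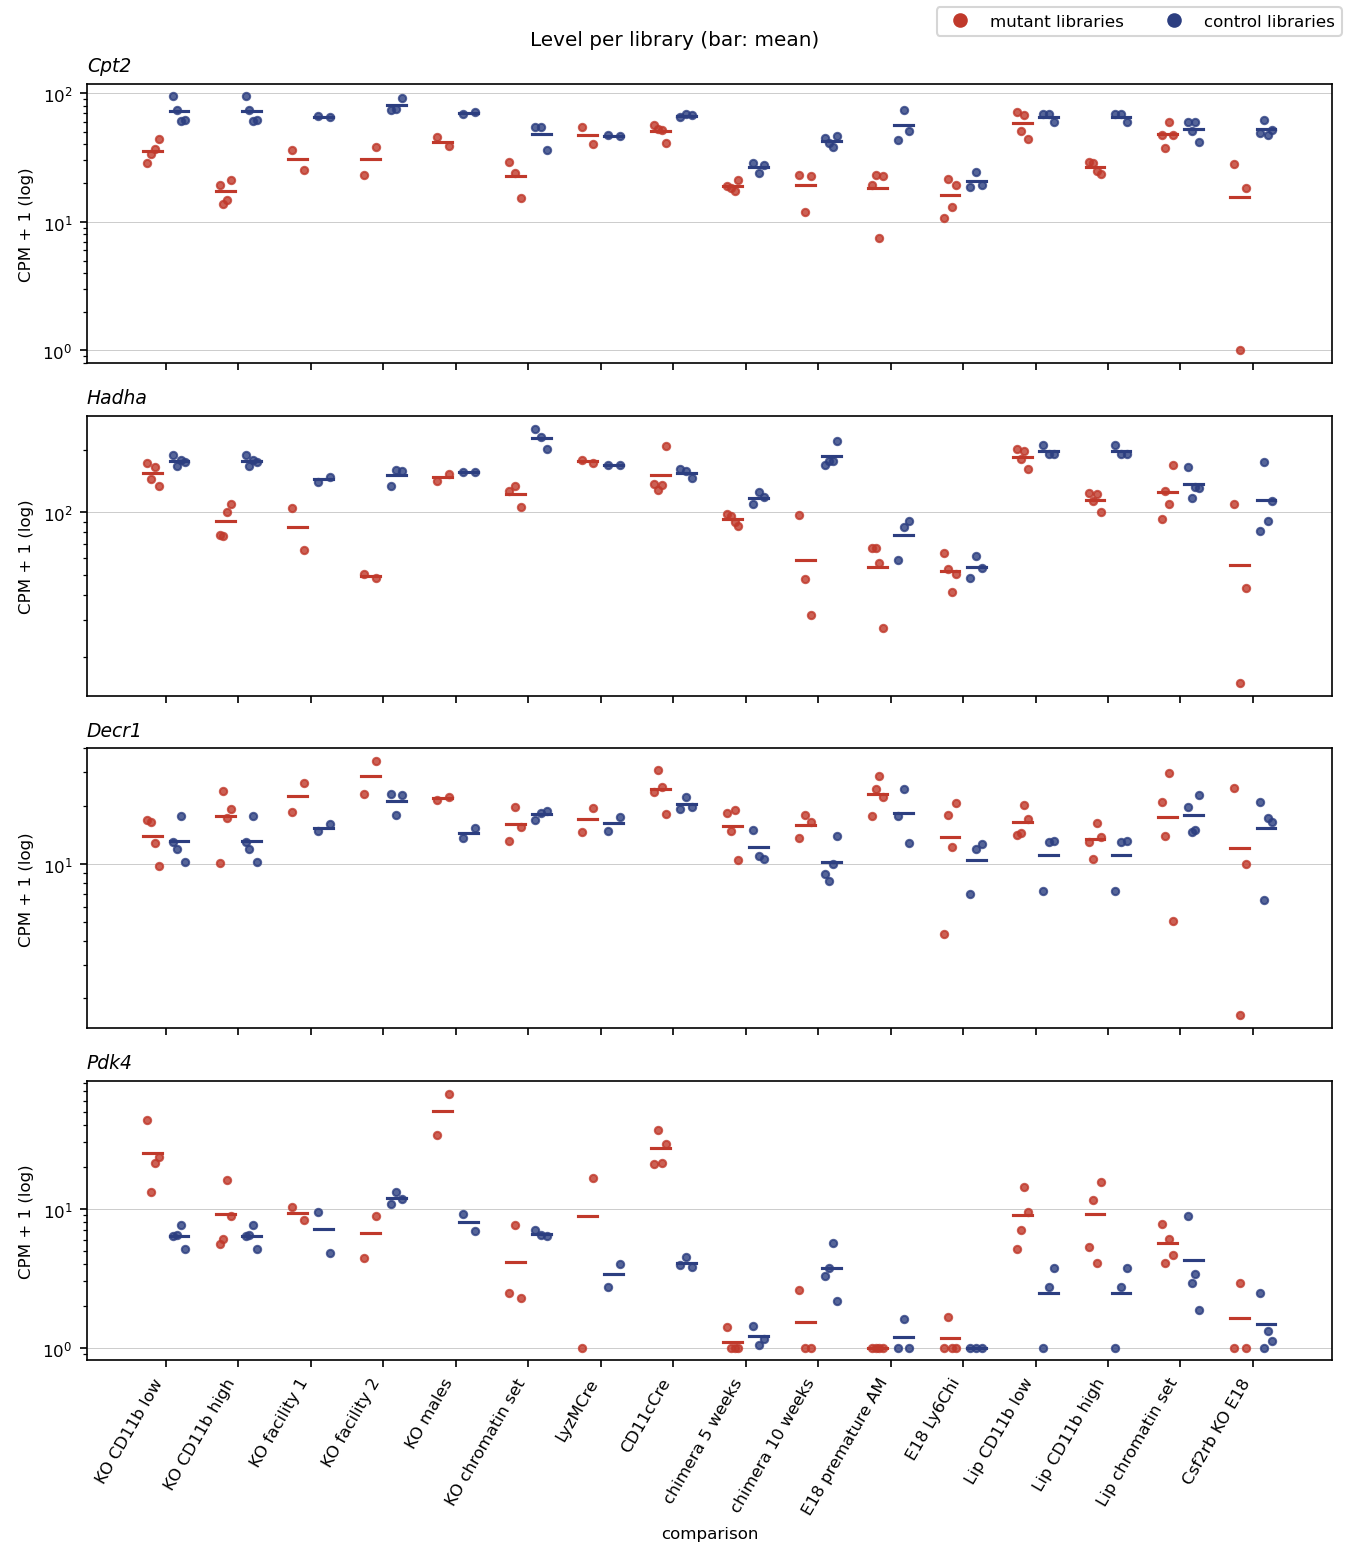
CPM + 1 (log axis) of Cpt2, Hadha, Decr1 and Pdk4 in every library of 16 comparisons, mutant libraries (red) left of their controls (blue), bars at the mean. Cpt2 lies lower in most mutant groups, while the 4 CD11cCre knockout libraries of Pdk4 lie above all 3 controls.

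Among knockout macrophages, CD11b high cells were set against CD11b low cells. Of 32 members 3 were lower in CD11b high cells and 0 higher (2.61% and 1.19% of all genes, or 3.8% either way). These were Cpt2 (-1.04 ± 0.25), Hadha (-0.77 ± 0.19) and Pdk4 (-1.71 ± 0.40), and each call depended on single libraries. Cpt2 lost its call without CD11b low replicates 3 or 4 or CD11b high replicate 2 (-1.03 to -0.93, adjusted p 0.0652 to 0.0968). Hadha lost its call without CD11b low replicates 1 or 3 or CD11b high replicates 1 or 2 (-0.74 to -0.69, adjusted p 0.0568 to 0.0989). Pdk4 lost its call without CD11b low replicate 1 or CD11b high replicates 2 or 4 (-1.73 to -1.28, adjusted p 0.0594 to 0.159). The count was 1 without CD11b low replicate 1 or 3 and 0 without CD11b high replicate 2. In Lip cells 11 members were lower and 1 higher in CD11b high than in CD11b low cells (9.48% and 10.1% of all genes, or 19.5% either way). The largest falls were those of Hsd17b4 (log2 fold change -1.23 ± 0.12, edgeR adjusted p = 1.11e-11), Cpt2 (-1.15 ± 0.17) and Eci2 (-1.12 ± 0.11). For Cpt2 the libraries had 28.3, 27.9, 23.9 and 22.5 CPM in CD11b high and 70.7, 49.7, 67.0 and 42.8 CPM in CD11b low cells, without overlap. Crat was higher at 119.9, 136, 110.2 and 134 CPM in CD11b high and 83.8, 85.9, 96.6 and 88.5 CPM in CD11b low cells (0.49 ± 0.12). With the replicate number as a block the same 12 and 2 more, Hadhb (adjusted p = 0.0476) and Acox3 (adjusted p = 0.0495), passed.

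The knockout effect differed between adult strata measured together. The effect at facility 2 minus that at facility 1 was negative for 6 members and positive for 1 (4.17% and 3.44% of all genes passed in these directions, and 7.61% either way). Abcd2 differed by -2.26 ± 0.29 (edgeR adjusted p = 0.000361), and this call held with any 1 library left out. Ehhadh (-2.46 ± 0.50) was lost without facility 1 knockout replicate 1 (-2.05, adjusted p 0.0579). Acadm (-1.44 ± 0.31) was lost without facility 1 wild-type replicate 2 or facility 1 knockout replicate 1 (-1.31 to -1.22, adjusted p 0.0536 to 0.0618). Its level at facility 1 was 164 and 119 CPM without Cebpb and 151 and 120.0 CPM in wild type. Cpt1a (-1.04 ± 0.27) was lost without facility 1 wild-type replicate 2 or facility 1 knockout replicate 1 or facility 2 wild-type replicate 3 (-1.04 to -0.94, adjusted p 0.0515 to 0.0988). Hadha (-0.88 ± 0.26) was lost without facility 1 wild-type replicates 1 or 2 or facility 1 knockout replicate 1 or facility 2 wild-type replicates 1 or 2 or 3 or facility 2 knockout replicate 2 (-0.96 to -0.53, adjusted p 0.0572 to 0.259). Hsd17b4 (-0.85 ± 0.25) was lost without facility 1 wild-type replicates 1 or 2 or facility 1 knockout replicate 1 or facility 2 wild-type replicates 1 or 2 or 3 or facility 2 knockout replicate 1 (-0.94 to -0.70, adjusted p 0.0626 to 0.18). In the other direction, Etfb (1.16 ± 0.34) was lost without facility 1 wild-type replicates 1 or 2 or facility 1 knockout replicates 1 or 2 or facility 2 wild-type replicates 1 or 2 or 3 or facility 2 knockout replicate 2 (0.54 to 1.34, adjusted p 0.059 to 0.255). At facility 2 Etfb had 64.9 and 129.7 CPM without Cebpb and 113, 139 and 142 CPM in wild type. The count of 7 became 1 without facility 1 knockout replicate 1, 2 without facility 1 wild-type replicate 2, 3 without facility 2 wild-type replicate 3, and 4 without facility 1 wild-type replicate 1 or facility 2 wild-type replicate 2.

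The knockout effect in males minus the mean effect in females was positive for 13 of 32 members and negative for 0 (6.16% and 4.43% of all genes, or 10.6% either way). A positive value stands for a less negative, or a positive, log2 fold change in males. The largest differences were those of Pdk4 (2.99 ± 0.60), Ehhadh (1.70 ± 0.39), Slc25a20 (1.23 ± 0.31) and Eci2 (1.13 ± 0.22). Eci2, Hadha (1.12 ± 0.23) and Acaa2 (1.07 ± 0.22) kept their calls with any 1 library left out. Males had 141 and 152 CPM of Hadha without Cebpb and 156 and 156 CPM in wild type, with lower knockout libraries. Acaa2 stood at 204 and 182 CPM without Cebpb and 139 and 141 CPM in wild type, with higher ones. The other 10 lost theirs with at least 1 library, and the count became 7 or 5 without male wild-type replicate 1 or 2 and 6 without male knockout replicate 1. Males had 179 and 162 CPM of Cpt1a without Cebpb and 159 and 152 CPM in wild type. They had 165 and 116 CPM of Acadm without Cebpb and 107 and 107 CPM in wild type. For Slc25a20 they had 51.8 and 57.7 CPM without Cebpb and 44.2 and 32.9 CPM in wild type. The monocyte and interstitial macrophage markers summed to 5113 to 5833 CPM in knockout males to 6928 to 8727 CPM in knockout females of facility 1 and to 8023 to 10503.6 CPM in those of facility 2, and their part was not tested. Since the labels give no facility for males, sex and facility cannot be told apart here, with 2 or 3 libraries in each group.

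**Figure D4:**
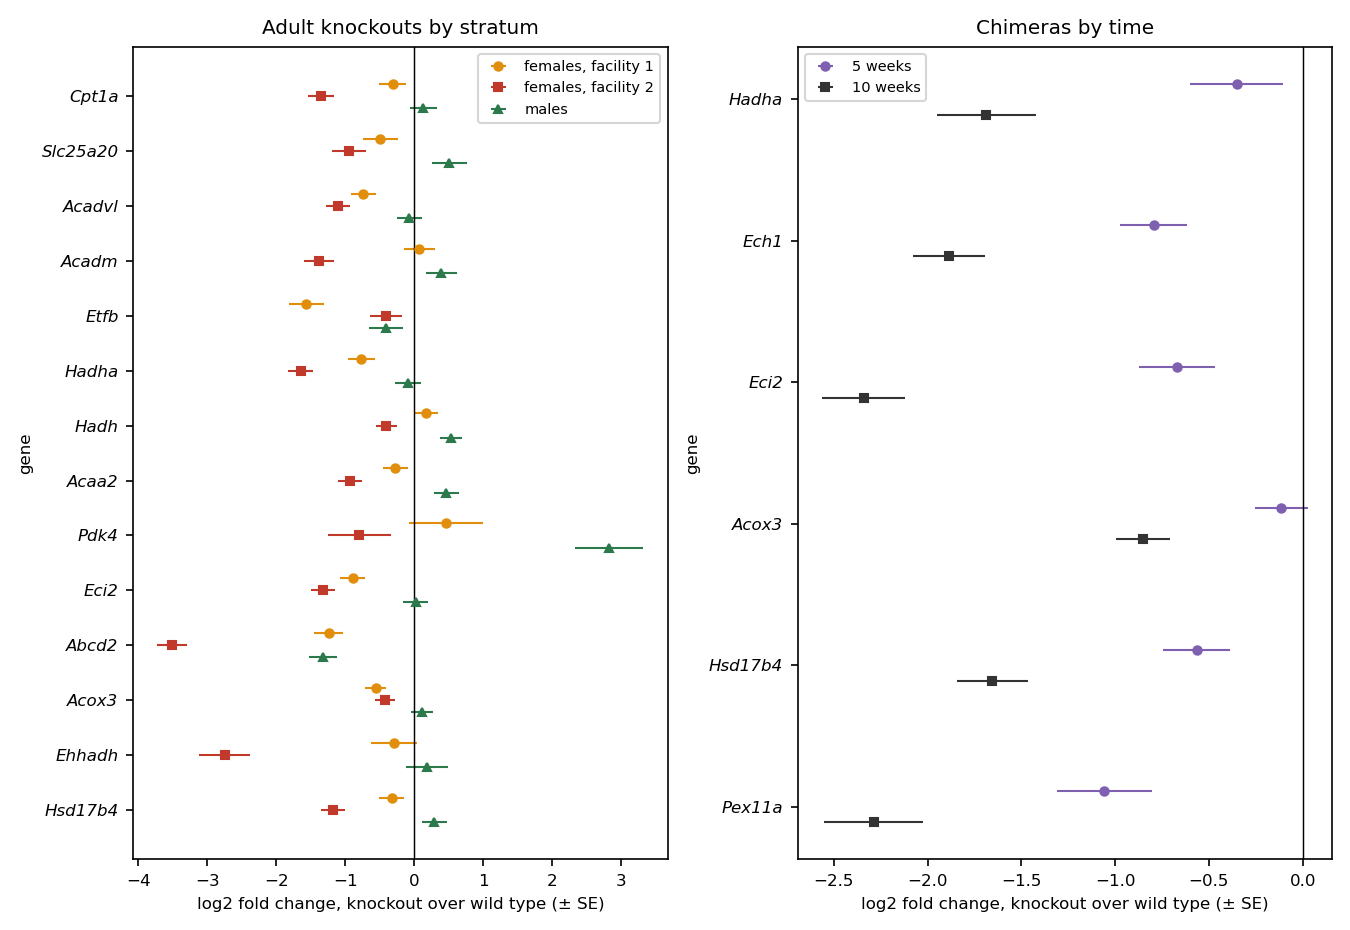
Log2 fold change of knockout over wild type with its standard error for the members whose effect differed between strata (left, females of each facility and males) or between 5 and 10 weeks after transfer (right). Abcd2 lies at -3.51 at facility 2, -1.24 at facility 1 and -1.32 in males, and all 6 members on the right have lower log2 fold changes at 10 weeks.

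In chimeras the knockout effect at 10 weeks minus that at 5 weeks was negative for 6 members and positive for 0 (5.97% and 7.57% of all genes, or 13.5% either way). Eci2 (-1.67 ± 0.30), Ech1 (-1.09 ± 0.26) and Hsd17b4 (-1.09 ± 0.26) kept their calls with any 1 library left out. Hadha (-1.33 ± 0.36) was lost without 5-week wild-type replicate 1 or 10-week knockout replicate 2 (-1.28 to -1.19, adjusted p 0.0576 to 0.0618). Acox3 (-0.74 ± 0.20) was lost without 5-week wild-type replicates 1 or 2 or 10-week knockout replicate 2 (-0.72 to -0.56, adjusted p 0.0553 to 0.0614). Pex11a (-1.23 ± 0.36) was lost without 5-week knockout replicates 2 or 3 or 4 or 5-week wild-type replicates 1 or 2 or 10-week knockout replicate 2 or 10-week wild-type replicates 2 or 4 (-1.25 to -0.94, adjusted p 0.0577 to 0.0943). The count became 3 without 5-week wild-type replicate 1 or 10-week knockout replicate 2, and 11 without 10-week knockout replicate 1. At 5 weeks Hadha had 96.6, 95.3, 88.5 and 85.2 CPM in knockout and 108, 124 and 118 CPM in wild-type cells. Acox3 had 129, 123, 120.3 and 120.3 CPM in knockout and 125, 129.6 and 145 CPM in wild-type cells. For these 6 genes the wild-type libraries were higher at 10 weeks than at 5 weeks. The 10 alveolar macrophage markers moved the same way, with sums of 4028 to 9093 CPM in wild-type cells at 5 weeks and of 15468 to 27058 CPM in wild-type cells at 10 weeks, and their part in the difference was not tested.

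Other genes of the pathway, taken from lists by known function, gave a mixed picture on the mitochondrial side. These lists were chosen with earlier results of these data known, so their shares here and below are no independent support. Of other mitochondrial fatty acid and ketone body genes, 17 tests passed with a higher level (7.17%) and 35 with a lower one (14.8%) of 237 over the 12 knockout comparisons, beside the 12.4% and 10.3% of all genes given above. At 10 weeks 4 rose and 8 fell of 22 (24.5% and 21.1% of all genes). At facility 2 the counts were 3 and 6 of 21 (24.9% and 22.7%), and under LyzMCre 1 and 0 of 18 (2.96% and 1.72%). Oxct1, which activates ketone bodies, rose in CD11b low (0.95 ± 0.21), CD11b high (1.12 ± 0.21) and CD11cCre knockout cells (1.00 ± 0.16). Acat1, a thiolase of ketone body metabolism, fell in CD11b low (-1.104 ± 0.24) and high cells (-1.60 ± 0.24). Bdh1, a ketone body dehydrogenase, fell in 10-week chimeras (-2.20 ± 0.37).

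Of other peroxisomal genes, 3 tests passed with a higher level (1.36%) and 56 with a lower one (25.3%) of 221 over the 12 knockout comparisons. At 10 weeks 1 rose and 13 fell of 20 (24.5% and 21.1% of all genes). At facility 2 the counts were 0 and 9 of 20 (24.9% and 22.7%), and in males 0 and 1 of 20 (7.12% and 3.76%). Under CD11cCre 1 rose and 2 fell of 20 (10.3% and 6.48%), and under LyzMCre 0 passed of 15 in edgeR (4.68% of all genes either way). Pxmp4, a peroxisomal membrane protein, fell in CD11b high (-1.22 ± 0.21) and facility 2 cells (-1.83 ± 0.24), and Cat, the catalase that breaks down the peroxide made by peroxisomal oxidases, in both CD11b groups (-1.31 ± 0.31 and -1.23 ± 0.30). Of genes of peroxisome biogenesis, 2 tests passed with a higher level (1.17%) and 17 with a lower one (9.94%) of 171. The lower share was close to the 10.3% of all genes, and the higher one was below their 12.4%. At facility 2, 1 rose and 5 fell of 15 (24.9% and 22.7% of all genes). The median log2 fold change there was -0.47, beside -0.42 for the other peroxisomal genes. For genes of the tricarboxylic acid cycle these counts were 3 (1.56%) and 33 (17.2%) of 192. At 10 weeks 9 of 16 fell, and 6 of 16 did so at facility 2 (21.1% and 22.7% of all genes), with 0 rises. Under CD11cCre 2 of 16 rose (Ogdh and Idh3a) and 1 fell (10.3% and 6.48% of all genes). Fh1 rose in E18 macrophages, where 3 of 16 fell (12% and 9.55% of all genes). Of mitochondrial import and channel genes, 5 tests passed with a higher (3.94%) and 12 with a lower level (9.45%) of 127. Here too the lower share was close to the 10.3% of all genes.

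Pparg, which encodes the receptor named above, had 94.7, 62.4, 74.2 and 64.1 CPM in CD11b low and 29.0, 33.2, 50.8 and 39.7 CPM in CD11b high knockout cells, against 368, 253, 169 and 192 CPM in wild type (-1.71 ± 0.25 and -2.70 ± 0.26). It fell to 9.68, 6.69, 7.94 and 5.80 CPM in E18 knockout macrophages, against 159, 176 and 179 CPM in wild type (log2 fold change -4.50 ± 0.23, edgeR adjusted p = 2.85e-08), and its effect was more negative at facility 2 than at facility 1 (-1.76 ± 0.43) and less negative in males (1.41 ± 0.37). For 7 further PPAR targets, 4 tests passed with a higher (5%) and 47 with a lower level (58.8%) of 80 over the 12 knockout comparisons. In CD11cCre cells 2 of 7 rose and 3 fell (10.3% and 6.48% of all genes). Of 11 regulators tested, Pparg included, Pparg alone passed in the CD11b-sorted set. At facility 2 Sirt1 rose, and Pparg, Ppard, Rxra, Esrra and Sirt3 fell. Rxra, which encodes the partner receptor of PPARs, fell also in facility 1 females, males, chimeras of both times and the chromatin-matched set. Over the 12 knockout comparisons 4 regulator tests passed with a higher (3.03%) and 25 with a lower level (18.9%) of 132. Over all genes these shares were 12.4% and 10.3%. Pparg was lower in each of the 11 comparisons that held a lower regulator, so the 18.9% does not describe regulators as a class.

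C/EBPβ ChIP peaks of wild-type alveolar macrophages were listed for 2 samples, and 16 of 32 members had a peak in both lists within 10 kb of the gene (50%). Of all 19966 protein-coding genes counted, 40.9% did, and of the 8208 tested in the CD11b-sorted set 65.0%, above the share of the members. By compartment the counts were 7 of 9 peroxisomal members (77.8%), 2 of 3 in both compartments and 7 of 20 mitochondrial members (35%). Abcd2 on chromosome 15 had 6 regions shared by both lists, among them chr15:91171808-91173514 and chr15:91178466-91180703, with the authors' fold enrichments of 36.7 and 32.8 in the first list. Acox3 and Abcd3 had shared peaks with summits 62 and 196 bases before the start, and the one of Pex11a lay 10296 bases downstream of its start. No shared peak lay within 10 kb of Cpt2, Eci2, Acads or Etfa, which fell in 5 or more knockout comparisons, nor of Pdk4.

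Open chromatin was listed for cultured alveolar macrophages of MxCre+ Cebpb flox/flox (n = 3) and MxCre+ (n = 2) mice, expanded with CSF2 (GM-CSF) and treated with interferon alpha, which induces the Mx1 promoter that drives this Cre. All 32 members had a peak within 10 kb in all 5 lists while single lists had one for 78.8 to 81.4% of all genes counted. Those include genes not expressed in these cells, and a share over the genes tested in RNA was not taken. The gap is therefore not read as a trait of the members. Of the 34 shared ChIP regions near members, 7 had ATAC peaks in a smaller share of knockout than of control cultures (20.6%) and 1 in a larger share (2.94%). Over all 19114 shared ChIP regions these shares were 19.5% and 4.83%. The 1 region, near Acaa2, was open in 3 of 3 knockout and 1 of 2 control cultures. One region in Abcd2, chr15:91170387-91171526, was open in 0 of 3 knockout and 1 of 2 control cultures. Regions of Hadhb (chr5:30170069-30170781), Acox3 (chr5:35609204-35610570) and Pex11a (chr7:79732493-79733142) were open in 1 of 3 knockout and both control cultures. With so few cultures these are descriptions. RefSeq promoters were found for 27 members. The nuclear receptor hexamer AGGTCA (either strand) was in 4 of them (Acadm, Echs1, Acadvl and Cpt1a; 14.8%), beside 14.2% of all promoters. Direct repeats of AGGNCA with 1 base between the copies were in 0 of 27, beside 0.351% of all promoters. With a share this low, most sets of 27 promoters would hold 0, so this does not show that members lack such repeats. Abcd2 and Hsd17b4 were not among the 27.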

How the data were processed

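Bulk 3′ RNA libraries (MARS-seq) of sorted cells gave the deposited gene counts, which per the submitters' processing notes involved STAR 2.6.1a and featureCounts 1.6.3 on GRCm38 (mm10). Whether the authors collapsed molecular tags, and whether they counted by strand, is not stated by these sources. Genes with near-identical copies (Acaa1a and Acaa1b, Acot2 and Acot1) may share reads. The spans of Hadha and Hadhb do not overlap. Peaks came as 1 list per sample, with MACS2 2.2.7.1 named in the submitters' processing notes. The authors' lists hold a score, a fold enrichment, and −log10 p-values and q-values for each peak.

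Each experiment was fitted on its own across all genes with edgeR 4.0.16 (R 4.3.3), using quasi-likelihood F tests, TMM scaling, a minimum count of 10 and Benjamini-Hochberg adjustment, with a threshold of 0.05. The procedure was tested on simulated data. Each standard error was obtained by dividing the size of the log2 fold change by the square root of its F statistic. CPM were scaled with TMM factors. Alternatives were other size factors, no filter on low counts, DESeq2 1.42.0, a replicate block, and each library left out in turn.

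Knockout CD11b low and high cells share 4 wild-type libraries, facility 1 knockout and heterozygous cells share 2, and Lip CD11b low and high cells share 3. Same-numbered libraries deviated together (correlations 0.105 to 0.248 over 4 pairs) in the Lip CD11b high against low comparison. The measure asked that each of at least 3 pairs pass a cut-off, and no other comparison met it. The 10-week chimeras, whose cells share hosts, fell just short of it (0.0976 to 0.124 over 3 pairs), so pairing there is not excluded. Members and lists were chosen with earlier results of these data known. Every-library values are given for members called in at least 5 of the 12 knockout comparisons or in a test of a difference. For some of their calls only a fold change or a count is given. Such values are also given for the 3 largest called rises and falls of a comparison, while others are given by ranges or counts. A peak was assigned to a gene within 10 kb of it. Promoters are from RefSeq (GRCm38.p6), matched for 27 of 32 members.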

Additional observations from a re-analysis of the deposited data

Results flagged for a closer look

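Within groups of 4 libraries, a value was singled out where its gap to the nearest other library was beyond the 95% critical value of Dixon's test on the range. This held for 31 of 415 groups of a gene (7.47%), where chance gives about 1 in 20. In CD11b high knockout libraries these were Slc25a20 at 54.9 CPM in replicate 3, above 27.2 to 31.2 CPM in the others, and Etfa at 48.0 CPM in replicate 1, below 88.7 to 94.7 CPM in the others. There was also Echs1 at 65.9 CPM in replicate 3, above 38.9 to 42.6 CPM in the others. In wild-type libraries these were Acads at 31.5 CPM in replicate 2, below 68.3 to 70.4 CPM in the others, and Ehhadh at 36.2 CPM in replicate 1, above 9.32 to 13.7 CPM in the others. In CD11cCre knockout libraries this was Hadha at 207 CPM in replicate 4, above 127 to 136 CPM in the others. In Lip CD11b high libraries these were Echs1 at 69.4 CPM in replicate 1, above 57.0 to 58.6 CPM in the others, and Eci2 at 94.8 CPM in replicate 3, below 107 to 108 CPM in the others. In E18 Cebpb knockout libraries this was Crat at 26.4 CPM in replicate 1, above 17.4 to 18.7 CPM in the others. In Csf2rb +/+ libraries these were Etfa at 132 CPM in replicate 2, below 263 to 284 CPM in the others, and Pex11a at 53.0 CPM in replicate 3, above 42.5 to 44.2 CPM in the others. In Ly6Chi knockout libraries these were Acot2 at 4.75 CPM in replicate 2, above 0.506 to 1.21 CPM in the others, and Pdk4 at 0.678 CPM in replicate 2, against 0 in the others. There were also Ucp2 at 582 CPM in replicate 3, below 989 to 1026 CPM in the others, and Ehhadh at 0 CPM in replicate 2, below 2.12 to 2.53 CPM in the others. In 5-week knockout libraries these were Acads at 34.6 CPM in replicate 4, below 40.6 to 41.7 CPM in the others, and Acaa2 at 55.5 CPM in replicate 4, below 68.5 to 70.9 CPM in the others. There were also Pdk4 at 0.408 CPM in replicate 1, against 0 in the others, and Ehhadh at 2.12 CPM in replicate 1, above 0.549 to 0.778 CPM in the others. There was also Pex11a at 4.16 CPM in replicate 1, below 4.68 to 4.78 CPM in the others. In 10-week wild-type libraries these were Slc25a20 at 32.01 CPM in replicate 3, below 39.9 to 41.3 CPM in the others, and Hadha at 220.4 CPM in replicate 4, above 169 to 176 CPM in the others. There was also Hadhb at 73.7 CPM in replicate 1, above 57.2 to 58.6 CPM in the others. In chromatin-matched Lip libraries these were Acadl at 129 CPM in replicate 3, above 76.4 to 81.4 CPM in the others, and Acadm at 107 CPM in replicate 2, above 83.3 to 85.7 CPM in the others. There were also Etfb at 125 CPM in replicate 4, below 199.7 to 214 CPM in the others, and Etfdh at 34.2 CPM in replicate 3, above 19.6 to 21.8 CPM in the others. There were also Eci1 at 123 CPM in replicate 3, above 66.5 to 69.9 CPM in the others, and Acox3 at 168 CPM in replicate 4, above 102 to 113 CPM in the others. There was also Acaa1a at 102 CPM in replicate 4, below 127 to 128 CPM in the others. In chromatin-matched Lip control libraries this was Acaa1a at 106 CPM in replicate 3, below 192 to 204 CPM in the others.

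A test of the difference between knockout effects passed for 7 members between facilities, 13 between males and females, and 6 between times after transfer (edgeR interaction, log2 scale). Facility 2 minus facility 1 gave Cpt1a (-1.04), Acadm (-1.44), Etfb (1.16), Hadha (-0.88), Abcd2 (-2.26), Ehhadh (-2.46) and Hsd17b4 (-0.85). Males minus the mean of the females gave Cpt1a (0.96), Slc25a20 (1.23), Acadvl (0.85), Acadm (1.05), Hadha (1.12), Hadh (0.65), Acaa2 (1.07), Pdk4 (2.99), Eci2 (1.13), Abcd2 (1.05), Acox3 (0.61), Ehhadh (1.70) and Hsd17b4 (1.04). In chimeras, 10 weeks minus 5 weeks gave Hadha (-1.33), Ech1 (-1.09), Eci2 (-1.67), Acox3 (-0.74), Hsd17b4 (-1.09) and Pex11a (-1.23).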

How the results depend on the processing

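Size factors of the DESeq2 kind, no filter on low counts and DESeq2 itself left the number of members called within 1.5 times, with 4 exceptions. Under LyzMCre, 1 call became 2 with other size factors and 5 without the filter, in heterozygous cells 0 became 2 without the filter, and between knockout CD11b high and low cells 3 became 5 by DESeq2. No direction of a called member reversed. With 1 library left out in turn, counts ran from 8 to 12 in facility 1 females (13 with all libraries), 0 to 1 in heterozygotes (0), 2 to 4 in males (8), 0 to 15 under LyzMCre (1), 6 to 16 under CD11cCre (10), 10 to 15 in Lip CD11b low cells (16), and 7 to 13 without Csf2rb (11). They ran from 0 to 2 in Ly6Chi monocytes (2), 10 to 15 in 5-week chimeras (16), 10 to 17 in the chromatin-matched knockout (17), 1 to 2 in chromatin-matched Lip cells (2), and 0 to 4 between knockout CD11b high and low cells (3). For differences between effects they ran from 1 to 8 for facility (7), 5 to 15 for sex (13) and 3 to 11 for time (6). With single libraries left in a group, that library is assumed to vary like the others. The cause of these shifts was not tested.

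With the replicate number as a block, calls became 2 under LyzMCre, 7 without Csf2rb, 1 between knockout CD11b high and low cells and 4 for facility, where the numbers are not shown to pair samples (same-numbered libraries correlated at -0.375 to 0.354 outside the Lip CD11b comparison), and in the other comparisons the count stayed within 1.5 times. C/EBPβ peaks lay near 28 members within 50 kb (87.5%, beside 62.9% of all genes), against 16 within 10 kb (50%, beside 40.9%). Groups of 2 libraries and low counts, as for Ehhadh and Pdk4, limit what could be called.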
